A study of Homo sapiens
Mus musculus with 25 samples.

Results

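The genes described here are 42 genes of the endoplasmic reticulum (ER) stress and ATF4 response, chosen by gene symbol from a table of 38128 human genes. They comprise 15 ER chaperones and foldases, 4 genes of ER-associated degradation, 9 stress sensors and transcription factors, 8 ATF4 targets of amino acid and serine metabolism, and 6 feedback and other stress-induced genes. All 42 were found in the table and all 42 passed the filter on low counts. Of the 20 members described one by one, 9 were fixed by name. These were HSPA5, XBP1, ATF4, DDIT3, ASNS, ATF6, EIF2AK3 and ERN1 for their role, and WFS1 because it stands in the study's own gene table. The others were named for being among the 4 largest called changes of a comparison.

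The ER folds secreted and membrane proteins. When unfolded proteins accumulate, the sensors PERK (EIF2AK3), IRE1 (ERN1 and ERN2) and ATF6 start the unfolded protein response, in which IRE1 splices XBP1 mRNA, ATF6 is cut to release a transcription factor, and PERK phosphorylates eIF2α. Phosphorylated eIF2α lowers general translation but favours translation of ATF4, and it can also be produced by other kinases that sense lack of amino acids. Colonic secretory cells carry a heavy folding load, and IRE1β (ERN2) is known from mucin-producing epithelium.

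RNA was sequenced from xenograft tumours of HT29 cells, an established human colorectal cancer line. In the 4 groups that the study describes, they grew beneath the skin of nude mice that drank doxycycline. The comparisons ask how loss of the receptor tyrosine phosphatase PTPRK, and its return in active or inactive form, change gene expression. The 5 WT tumours came from unmodified cells without a vector. The other 4 groups derive from a PTPRK KO pool, made by CRISPR and sorted for absence of surface PTPRK, which is not a clone. The KO pool then received a doxycycline-inducible vector and was sorted for its green fluorescent protein tGFP. This vector carried tGFP alone in the 5 PTPRK KO tumours, PTPRK in the 6 PTPRK tumours and PTPRK.R1095Q in the 4 PTPRK.RQ tumours. The 5 PTPRK.C1089S tumours are labelled as PTPRK KO with PTPRK.C1089S. Their vector, sort, host mice and doxycycline are not described by the study. In PTPRK.RQ the catalytic arginine is replaced and activity is lost, whereas PTPRK.C1089S lacks the catalytic cysteine and can hold on to substrates. The study's images showed tGFP to vary from cell to cell in PTPRK and PTPRK.RQ tumours. WT differs from the other groups in the vector and the sort as well as in PTPRK.

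Each tumour had 43727372 to 59355464 counts in all. PTPRK itself, in CPM (counts relative to a library size scaled by TMM), was 299 to 332 in WT tumours, 28.1 to 75.9 in PTPRK KO tumours, 1310 to 2276 in PTPRK tumours, 961 to 1700 in PTPRK.RQ tumours and 1129 to 1778 in PTPRK.C1089S tumours, so the reintroduced gene stood above WT in every such tumour. Mean PTPRK was 1290 ± 308 CPM (SD) in PTPRK.RQ tumours and 1880 ± 389 CPM in PTPRK tumours without replicate 6. The difference in PTPRK level between PTPRK.RQ and PTPRK tumours was not called (adjusted p = 0.27), which does not show that the levels were equal. The study reports lower expression of PTPRK.RQ than of PTPRK in its xenografts. Epithelial markers EPCAM and CDH1 were present in every tumour, at 748 to 942 and 697 to 1254 CPM. Of 14 markers of fibroblasts, vessels and leukocytes, COL1A2, COL3A1, DCN, PDGFRB, VWF, CDH5 and PTPRC were at most 0.565 CPM in every tumour, and ACTA2 and ITGAM at most 2.74 CPM. COL1A1 was 2.41 to 13.0 CPM, LUM 2.89 to 12.8, PECAM1 0.528 to 6.51 and CD68 36.2 to 60.2. The 14 summed to 2218 to 3160 CPM, nearly all of it LYZ, at 2160 to 3109 CPM. Counts are of reads mapped to the human genome, so these markers do not measure how much host tissue a tumour held. The source of the LYZ reads was not tested. In bulk tumours, fewer cells of a type and less RNA per cell cannot be told apart. The other 19 tumours are those of the study's own xenograft analysis, which does not hold PTPRK replicate 6 or the PTPRK.C1089S tumours. PTPRK replicate 6 had the lowest level of its group for 24 of the 42 members (57.1%, against 19.4% of all tested genes) and was kept out of both fits, so values with it are given apart.

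A gene was called where the quasi-likelihood test of edgeR gave a Benjamini-Hochberg adjusted p below 0.05 over all genes in the fit. When PTPRK KO tumours were set against WT tumours, 0 members were called higher and 2 lower, SHMT2 and WFS1 (4.76% of 42). Of all tested genes 2.64% were called, 1.08% higher and 1.55% lower. Many more members, and many more of all genes, were called when tumours with a reintroduced PTPRK form were set against PTPRK KO tumours. Against PTPRK KO tumours, 17 members were called higher and 3 lower in PTPRK tumours (47.6%), where 27.8% of all genes were called, 13.6% higher and 14.2% lower. In PTPRK.RQ tumours 8 were called higher and 2 lower (23.8%), near the background of 21.8% (10.7% higher, 11.1% lower). In PTPRK.C1089S tumours 10 were called higher and 3 lower (31.0%), against a background of 16.6% (9.09% higher, 7.53% lower). The median log2 fold change over the 42 members in these 3 comparisons was 0.20, 0.12 and 0.11, beside 0.004, 0.026 and -0.003 over all tested genes. The 3 comparisons share the same PTPRK KO tumours. Of the 20, 10 and 13 calls, 13, 4 and 6 were kept under every alternative tried. The count for PTPRK.RQ was 5 without PTPRK KO replicate 1, 6 without PTPRK.RQ replicate 3 and 5 without PTPRK.RQ replicate 4. For PTPRK.C1089S it was 6 without PTPRK KO replicate 1, 8 without PTPRK KO replicate 2, 7 without PTPRK.C1089S replicate 3 and 8 without PTPRK.C1089S replicate 4.

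**Figure D1:**
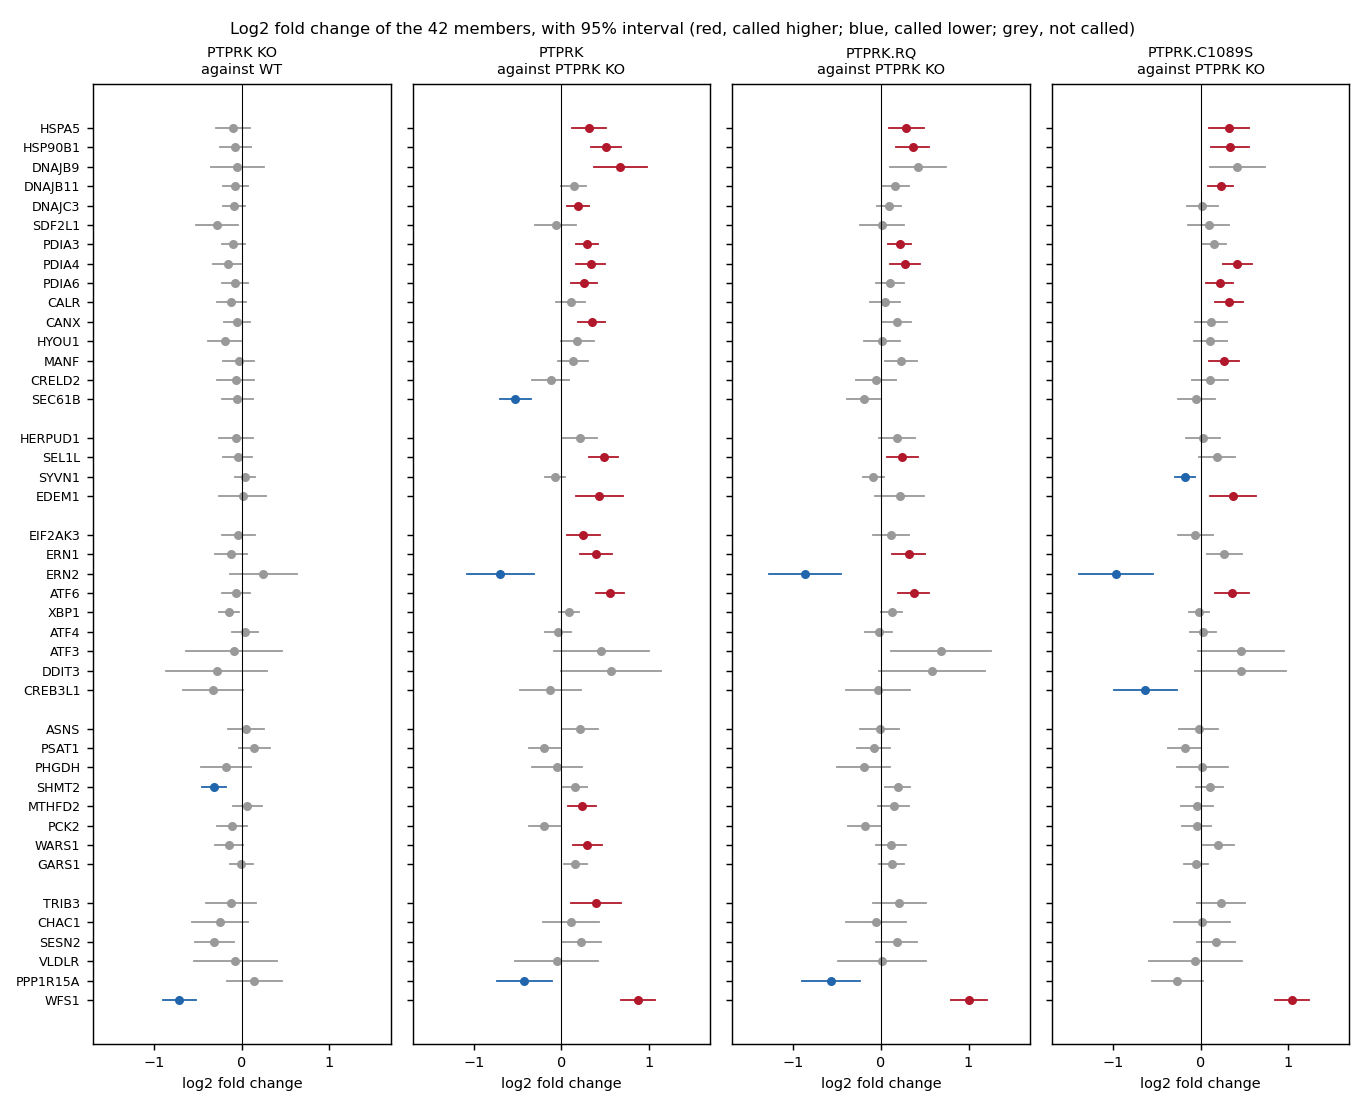
Log2 fold change (x axis) of each of the 42 members (y axis, grouped by role) in 4 comparisons, with the 95% interval as a line. Red points were called higher, blue points lower and grey points not called: 2 blue points stand in PTPRK KO against WT, and 17 red and 3 blue points in PTPRK against PTPRK KO.

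Among the ER chaperones and foldases, 8 of 15 rose and 1 fell in PTPRK against PTPRK KO tumours, 4 rose in PTPRK.RQ tumours and 7 in PTPRK.C1089S tumours. These are shares of 60%, 26.7% and 46.7%, beside 27.8%, 21.8% and 16.6% of all genes called in either direction. Called higher were 53.3%, 26.7% and 46.7%, beside 13.6%, 10.7% and 9.09% of all genes. HSPA5, HSP90B1 and PDIA4 were called higher in all 3 comparisons. HSPA5 (ENSG00000044574, GRCh38 chromosome 9, 125234853 to 125241343) encodes BiP, the Hsp70 chaperone of the ER that also holds the stress sensors inactive. Its levels in the PTPRK KO tumours were 513, 562, 564, 710.1 and 601 CPM. They were 615, 712, 793, 698 and 832 CPM in the PTPRK tumours, 592, 683, 799 and 785 CPM in the PTPRK.RQ tumours, and 657, 639, 864, 939 and 596 CPM in the PTPRK.C1089S tumours. All 3 groups overlapped the PTPRK KO tumours, whose replicate 4 was high, and PTPRK replicate 6 was at 541 CPM. HSPA5 rose by a log2 fold change of 0.31 ± 0.09 (SE) in PTPRK tumours (adjusted p = 0.0148), 0.29 ± 0.10 in PTPRK.RQ tumours (adjusted p = 0.0368) and 0.33 ± 0.11 in PTPRK.C1089S tumours (adjusted p = 0.0416). These 3 calls were lost without PTPRK KO replicate 1, with adjusted p of 0.0549, 0.126 and 0.115, and with PTPRK replicate 6 included the first had an adjusted p of 0.103. They held in 24 of 27, 15 of 27 and 22 of 32 settings. The PTPRK.RQ call also ended without PTPRK KO replicate 2, 3 or 5, PTPRK replicate 2, PTPRK.RQ replicate 3 or 4, or WT replicate 2, and the PTPRK.C1089S call without PTPRK KO replicate 2, 3 or 5 or PTPRK.C1089S replicate 3 or 4. In WT tumours HSPA5 was 632 ± 35.3 CPM (SD, n = 5), and the difference of PTPRK KO tumours from them was not called (log2 fold change -0.10, adjusted p = 0.65).

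HSP90B1 (chromosome 12, 103930107 to 103953645) encodes GRP94, the Hsp90 of the ER. It was 644, 689, 762, 824 and 778 CPM in the PTPRK KO tumours and 875, 1084, 1222, 1071 and 986 CPM in the PTPRK tumours, 2 sets that did not overlap. Levels were 905, 811, 1042 and 1004 CPM in PTPRK.RQ tumours, and 854, 816, 1004, 1238 and 754 CPM in PTPRK.C1089S tumours. Only the lowest tumours of these groups reached into the PTPRK KO range. The log2 fold changes against PTPRK KO were 0.51 ± 0.08 (adjusted p = 0.00018), 0.36 ± 0.09 (adjusted p = 0.0056) and 0.34 ± 0.11 (adjusted p = 0.0247). The last call ended without PTPRK KO replicate 1 or 2 or PTPRK.C1089S replicate 3 or 4.

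DNAJB9 (ERdj4), a co-chaperone of BiP with a classic XBP1-driven promoter, had the largest rise of the chaperones in PTPRK tumours. Its levels were 30.4, 54.4, 39.8, 35.2 and 42.7 CPM in PTPRK KO tumours and 51.8, 66.3, 61.9, 77.7 and 63.3 CPM in PTPRK tumours. Only PTPRK KO replicate 2 lay above the lowest PTPRK tumour. The log2 fold change was 0.67 ± 0.15 (adjusted p = 0.0023). In PTPRK.RQ and PTPRK.C1089S tumours it was 0.42 in both, just short of the threshold (adjusted p = 0.056 and 0.063).

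The protein disulphide isomerases PDIA3, PDIA4 and PDIA6, which form and rearrange disulphide bonds, had log2 fold changes of 0.30, 0.33 and 0.26 in PTPRK against PTPRK KO tumours, all called. In PTPRK.RQ tumours PDIA3 (0.21) and PDIA4 (0.27) were called, and in PTPRK.C1089S tumours PDIA4 (0.42) and PDIA6 (0.22). PDIA4 was 407, 391, 415, 531 and 434 CPM in PTPRK KO tumours and 562, 579, 637, 608 and 522 CPM in PTPRK.C1089S tumours, where only PTPRK KO replicate 4 overlapped. In PTPRK.RQ tumours the PDIA4 call ended without PTPRK KO replicate 1, 2 or 3 or PTPRK.RQ replicate 4, and the PDIA3 call, held in 18 of 27 settings, without PTPRK KO replicate 1 or 3 or PTPRK.RQ replicate 1, 3 or 4. The PDIA6 call in PTPRK.C1089S tumours held in 18 of 32 settings and ended without PTPRK.C1089S replicate 1, 2, 3 or 4, PTPRK KO replicate 1, 2, 3 or 5, or PTPRK replicate 2. CANX and CALR are the lectin chaperones of the glycoprotein folding cycle. CANX, the membrane-bound one, rose in PTPRK tumours (0.35, adjusted p = 0.0016), where CALR, the soluble one, had 0.11. CALR rose in PTPRK.C1089S tumours (0.32, adjusted p = 0.0050), where CANX was not called. Their differences between PTPRK.C1089S and PTPRK tumours were not called (CALR 0.22, adjusted p = 0.077, and CANX -0.23, adjusted p = 0.103). DNAJC3, a BiP co-chaperone, rose in PTPRK tumours (0.19), and DNAJB11 (0.23), another one, and MANF (0.26), a secreted factor that binds BiP, rose in PTPRK.C1089S tumours. The DNAJC3 call held in 20 of 27 settings and ended without PTPRK KO replicate 1 or PTPRK replicate 2, 3 or 4, with the offset for gene span and with PTPRK replicate 6 included. The DNAJB11 call held in 27 of 32 settings (lost without PTPRK KO replicate 1 or 2 or PTPRK.C1089S replicate 3), and the MANF call in 25 of 32 (lost without PTPRK KO replicate 1, 2 or 3 or PTPRK.C1089S replicate 1 or 3). SDF2L1, HYOU1 and CRELD2 were called in none of the 3 comparisons.

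SEC61B (ENSG00000106803, chromosome 9, 99222064 to 99230615), the small β subunit of the channel through which nascent chains enter the ER, moved the other way. Its levels were 50.2, 45.3, 44.6, 51.9 and 43.96 CPM in PTPRK KO tumours and 35.5, 28.4, 29.1, 32.4 and 37.5 CPM in PTPRK tumours. These groups were fully apart, and PTPRK replicate 6 (31.3 CPM) lay with its group. SEC61B fell in PTPRK tumours against PTPRK KO (log2 fold change -0.53 ± 0.08, adjusted p = 0.00013) and against WT tumours (-0.58, adjusted p = 0.00013). The PTPRK.RQ tumours held 37.1, 45.6, 37.5 and 42.7 CPM and the PTPRK.C1089S tumours 50.7, 54.3, 45.4, 33.0 and 43.8 CPM. Against PTPRK KO the difference was -0.20 (adjusted p = 0.12) and -0.05 (adjusted p = 0.82) in these.

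**Figure D2:**
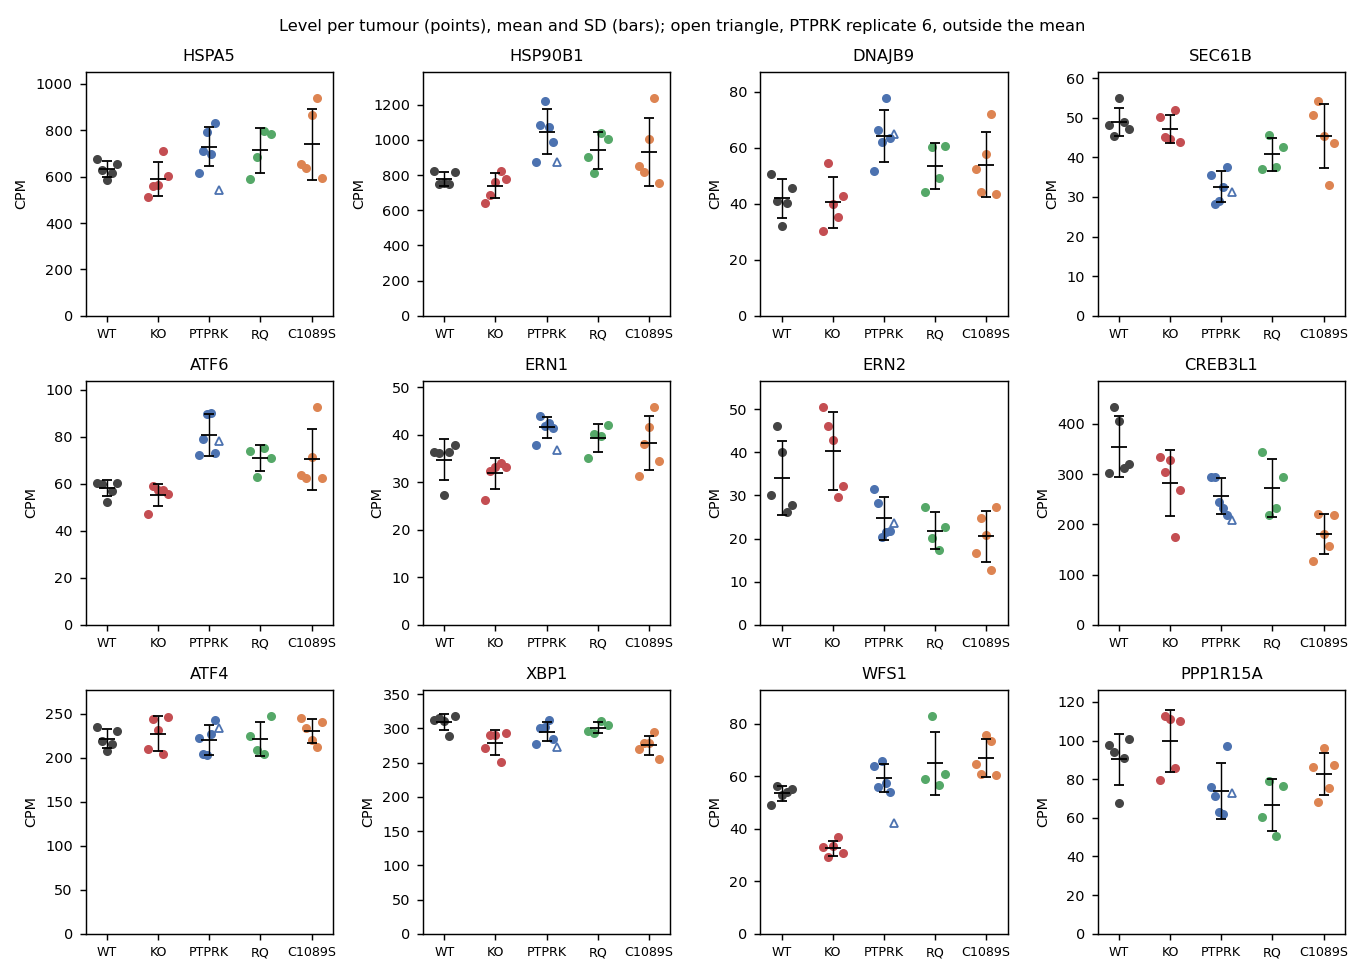
Level of 12 members in CPM (y axis, from 0) in each tumour of the 5 groups (x axis), with the group mean and SD as bars and PTPRK replicate 6 as an open triangle outside its mean. WFS1 is lower in the 5 PTPRK KO tumours (29.1 to 36.7 CPM) than in all others, and SEC61B in the PTPRK tumours is at most 37.5 CPM.

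ER-associated degradation returns misfolded proteins to the cytosol for the proteasome, and of its 4 members SEL1L and EDEM1 rose in PTPRK tumours and HERPUD1 and SYVN1 were not called. SEL1L, the adaptor of the ubiquitin ligase SYVN1, was 76.4 to 93.3 CPM in PTPRK KO tumours and 103.6 to 135.5 CPM in PTPRK tumours, without overlap (log2 fold change 0.48 ± 0.08, adjusted p = 0.0002). In PTPRK.RQ tumours its change was 0.24 (adjusted p = 0.047), a call held in 6 of 27 settings. EDEM1, which marks mannose-trimmed glycoproteins for disposal, was 26.6, 44.1, 35.2, 35.5 and 33.1 CPM in PTPRK KO tumours. In PTPRK tumours it was 45.2, 48.4, 47.0, 48.5 and 45.2 CPM, a narrow range above every PTPRK KO tumour. Its log2 fold change was 0.43 ± 0.13 in PTPRK tumours (adjusted p = 0.0154) and 0.37 ± 0.13 in PTPRK.C1089S tumours (adjusted p = 0.0492). Without PTPRK KO replicate 1 these had adjusted p of 0.055 and 0.152. The second call held in 9 of 32 settings. SYVN1 was slightly lower in PTPRK.C1089S tumours (-0.18, adjusted p = 0.023), a call lost without PTPRK.C1089S replicate 4 or PTPRK KO replicate 1 or 2, and it shares its locus with FAU on the same strand, which had 296.5% of its counts.

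Of the 9 sensors and transcription factors, 3 rose and 1 fell in PTPRK tumours, 2 rose and 1 fell in PTPRK.RQ tumours, and 1 rose and 2 fell in PTPRK.C1089S tumours. The shares called were 44.4%, 33.3% and 33.3%, beside 27.8%, 21.8% and 16.6% of all genes. ATF6 (chromosome 1, 161766320 to 161964070) was 47.1, 59.2, 57.5, 57.2 and 55.5 CPM in PTPRK KO tumours. It was 71.99, 79.0, 89.6, 90.3 and 72.9 CPM in PTPRK tumours, 74.1, 62.9, 75.4 and 71.0 CPM in PTPRK.RQ tumours and 63.5, 62.3, 71.5, 92.6 and 62.2 CPM in PTPRK.C1089S tumours. All 14 tumours stood above every PTPRK KO tumour. ATF6 rose by 0.55 ± 0.08 (adjusted p = 4.4e-05), 0.37 ± 0.08 (adjusted p = 0.0025) and 0.35 ± 0.09 (adjusted p = 0.0097) on the log2 scale, and these calls were kept under every alternative tried. ATF6 was also higher than in WT tumours (52.4 to 60.4 CPM), by 0.48, 0.30 and 0.28.

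ERN1 (IRE1α), the ubiquitous form, was 26.3, 32.5, 33.3, 34.2 and 33.2 CPM in PTPRK KO tumours. It was 37.9 to 43.9 CPM in PTPRK tumours and 35.1 to 42.1 CPM in PTPRK.RQ tumours, without overlap in either, and rose by 0.39 ± 0.09 (adjusted p = 0.0026) and 0.32 ± 0.09 (adjusted p = 0.018). The second call ended without PTPRK.RQ replicate 4 (adjusted p = 0.077) or PTPRK KO replicate 1. In PTPRK.C1089S tumours the change of 0.27 was not called (adjusted p = 0.056). EIF2AK3 (PERK) rose by 0.25 in PTPRK tumours (adjusted p = 0.0465), a call held in 8 of 27 settings.

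ERN2 (IRE1β; chromosome 16, 23690310 to 23713226), the epithelial paralogue of ERN1, went the other way. It was 50.5, 46.1, 42.8, 29.6 and 32.2 CPM in PTPRK KO tumours. The PTPRK tumours held 31.5, 28.3, 20.3, 21.6 and 21.7 CPM, the PTPRK.RQ tumours 27.2, 20.1, 17.3 and 22.7 CPM, and the PTPRK.C1089S tumours 16.6, 24.8, 20.9, 12.8 and 27.3 CPM. Every PTPRK.RQ and PTPRK.C1089S tumour was below the lowest PTPRK KO tumour, and PTPRK replicate 1 alone lay within the PTPRK KO range. ERN2 fell by 0.70 ± 0.18 (adjusted p = 0.0090), 0.87 ± 0.20 (adjusted p = 0.0040) and 0.97 ± 0.21 (adjusted p = 0.0020) on the log2 scale. These calls were kept under every alternative. ERN2 overlaps PLK1 on the opposite strand, and counting did not use strand. PLK1, a mitotic kinase, had 343.8% of the ERN2 counts and was called in none of these 3 comparisons.

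Unlike ATF6, the transcription factors ATF4 and XBP1 were not called at the transcript level. ATF4, the effector of eIF2α phosphorylation, was 203 to 247 CPM over the 25 tumours, with group means of 222 ± 11.2 (WT), 227 ± 19.4 (PTPRK KO), 219.9 ± 16.7 (PTPRK), 221 ± 19.5 (PTPRK.RQ) and 230.4 ± 14.0 (PTPRK.C1089S; SD, n = 4 or 5). Its log2 fold changes against PTPRK KO were -0.04, -0.03 and 0.03, with 95% intervals within -0.19 and 0.17. ATF4 is controlled in large part by translation, which these counts do not measure. XBP1 was 250.2 to 318 CPM and was called in none of the 10 comparisons, with log2 fold changes of 0.09, 0.12 and -0.01 against PTPRK KO. Gene counts do not separate its spliced form.

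DDIT3 (CHOP) and ATF3, stress-induced factors downstream of ATF4, spread widely within groups. DDIT3 was 9.12, 24.3, 17.7, 12.7 and 18.1 CPM in PTPRK KO tumours and 27.3, 18.7, 10.2, 18.5 and 25.1 CPM in WT tumours. The PTPRK tumours held 23.2, 20.04, 20.8, 27.3 and 29.4 CPM. All groups overlapped, and PTPRK KO replicate 1 and WT replicate 3 were lowest for both genes. The log2 fold changes of DDIT3 against PTPRK KO were 0.57, 0.58 and 0.46 and those of ATF3 0.46, 0.68 and 0.46, none of them called (adjusted p from 0.083 to 0.25). Overlapping genes MARS1 and MBD6 on the opposite strand had 458.4% and 323.2% of the DDIT3 counts.

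CREB3L1 (OASIS), an ER-bound transcription factor cut like ATF6, was lowest in the PTPRK.C1089S tumours. They held 128, 221, 182, 156 and 219 CPM, against 334, 304, 328, 175 and 268 CPM in PTPRK KO tumours and 303, 434, 405, 312 and 321 CPM in WT tumours. No PTPRK.C1089S tumour reached the WT range, and PTPRK KO replicate 4 overlapped them. The log2 fold change was -0.63 ± 0.17 against PTPRK KO (adjusted p = 0.0139) and -0.96 ± 0.17 against WT (adjusted p = 0.00077). Against PTPRK KO it was -0.13 in PTPRK tumours and -0.04 in PTPRK.RQ tumours, neither called, and the differences of PTPRK.C1089S from these groups were -0.50 (adjusted p = 0.069) and -0.59 (adjusted p = 0.060). Marker genes of goblet cells were low in the same tumours, but not only there. Their median log2 fold change against PTPRK KO was -0.623 in both PTPRK.C1089S and PTPRK tumours. Their values follow with those of the other cell types.

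Of the 8 ATF4 targets of amino acid and serine metabolism, 2 rose in PTPRK against PTPRK KO tumours (25%). Of all genes 27.8% were called there in either direction, and 13.6% were called higher. There 7 of the 8 had an unadjusted p below 0.05, and their median log2 fold change was 0.155. With edgeR 0 were called in PTPRK.RQ and PTPRK.C1089S tumours, where 2 and 1 had an unadjusted p below 0.05 and the medians were 0.052 and -0.031. DESeq2, read for 5 of the 8, called none of them there. MTHFD2, the mitochondrial one-carbon enzyme, was 125 to 152 CPM in PTPRK KO tumours and 136.5 to 186 CPM in PTPRK tumours, overlapping (0.24, adjusted p = 0.028). That call ended without PTPRK KO replicate 1 (adjusted p = 0.096) or 3, without PTPRK replicate 2, 3 or 4, and with PTPRK replicate 6 included. WARS1, the tryptophanyl-tRNA synthetase, rose by 0.30 (adjusted p = 0.0081). ASNS, asparagine synthetase and a standard reporter of ATF4 activity, was 40.6 to 54.4 CPM in PTPRK KO tumours and 45.2 to 63.0 CPM in PTPRK tumours (0.21, adjusted p = 0.119), and its log2 fold change was -0.01 in PTPRK.RQ and -0.02 in PTPRK.C1089S tumours. The overlapping AC079781.5 on the same strand had 105.6% of the ASNS counts. PSAT1 and PHGDH, enzymes of serine synthesis, were called in none of the 10 comparisons.

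SHMT2, which moves one-carbon units from serine in mitochondria, was one of the 2 members called below WT in PTPRK KO tumours. It was 401, 412, 356, 368 and 416 CPM in WT and 298, 312, 339.8, 301 and 315 CPM in PTPRK KO tumours, with no overlap. The log2 fold change was -0.32 ± 0.07 (adjusted p = 0.0092). Re-expression gave 330.3, 334, 385, 316 and 368 CPM in PTPRK tumours and 354, 375, 334 and 352 CPM in PTPRK.RQ tumours, and the change against PTPRK KO was not called in PTPRK, PTPRK.RQ or PTPRK.C1089S tumours. NDUFA4L2, which overlaps SHMT2 on the opposite strand, had 38.4% of its counts.

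WFS1 (ENSG00000109501, chromosome 4, 6269849 to 6303265) gave the clearest pattern of the 42 members. It was named because it stands in a gene table of the study, made from these xenografts. It encodes wolframin, an ER membrane glycoprotein tied to ER calcium and to restraint of ATF6, and its transcript is induced by the unfolded protein response. WFS1 was 49.1, 56.4, 52.9, 53.8 and 55.1 CPM in WT tumours and 33.0, 29.1, 33.3, 36.7 and 30.9 CPM in PTPRK KO tumours. It was 63.8, 55.8, 66.0, 57.5 and 53.9 CPM in PTPRK tumours, 59.01, 82.9, 56.7 and 60.7 CPM in PTPRK.RQ tumours and 64.6, 60.7, 75.7, 73.4 and 60.4 CPM in PTPRK.C1089S tumours. All 5 PTPRK KO tumours stood below all other tumours, and PTPRK replicate 6, at 42.1 CPM, lay between them and the rest. WFS1 fell by 0.71 ± 0.09 in PTPRK KO against WT (adjusted p = 0.00023). Against PTPRK KO it rose by 0.87 ± 0.09 in PTPRK (adjusted p = 1.8e-06), 1.01 ± 0.10 in PTPRK.RQ (adjusted p = 1.9e-07) and 1.04 ± 0.09 in PTPRK.C1089S tumours (adjusted p = 7.6e-08). These 4 calls were kept under every alternative. The median over the 50 nearest tested genes was -0.04 in PTPRK KO against WT and -0.20, -0.004 and -0.08 in the others. The difference of PTPRK tumours from WT was not called (0.16, adjusted p = 0.19), while PTPRK.RQ and PTPRK.C1089S tumours were above it by 0.29 and 0.33 (adjusted p = 0.027 and 0.017). Without PTPRK.RQ replicate 2 the first of these had an adjusted p of 0.225, and that call was also lost without WT replicate 1 or 3. The second was lost without PTPRK.C1089S replicate 3 or 4.

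Of the other feedback and stress-induced genes, TRIB3, a pseudokinase that restrains ATF4, rose by 0.39 in PTPRK tumours (adjusted p = 0.039), a call held in 15 of 27 settings. PPP1R15A (GADD34, chromosome 19, 48872421 to 48876058) encodes the subunit that directs dephosphorylation of eIF2α, and it fell. It was 79.3, 112.7, 111, 85.6 and 109.9 CPM in PTPRK KO tumours, 76.0, 71.2, 62.8, 62.2 and 97.3 CPM in PTPRK tumours and 60.3, 79.0, 50.7 and 76.4 CPM in PTPRK.RQ tumours. Only PTPRK replicate 5 lay within the PTPRK KO range. PPP1R15A fell by 0.42 ± 0.15 (adjusted p = 0.0394) and 0.57 ± 0.16 (adjusted p = 0.0152) on the log2 scale, with -0.26 in PTPRK.C1089S tumours (adjusted p = 0.23). The first call held in 18 of 27 settings and ended without any of PTPRK replicates 1 to 4 or PTPRK KO replicates 2, 3 and 5 (adjusted p = 0.106 without PTPRK replicate 4). It was also lost with the offset for gene span and without the filter on low counts. The second ended without PTPRK.RQ replicate 1 or 3 (adjusted p = 0.051 and 0.059). The 50 tested genes nearest to PPP1R15A on chromosome 19 had medians of -0.44, -0.55 and -0.39 in the 3 comparisons, beside its own changes. CHAC1, SESN2 and VLDLR were called in none of the 10 comparisons.

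The inactive forms were compared with active PTPRK directly, without adjustment for the level of PTPRK. In PTPRK.RQ against PTPRK tumours 1 member was called, SEC61B, which was higher (0.33 ± 0.09, adjusted p = 0.0387), where 3.74% of all genes were called, 1.7% higher and 2.04% lower. That call was lost in 11 of 27 settings, among them the fit without PTPRK.RQ replicate 2 (adjusted p = 0.148). In PTPRK.C1089S against PTPRK tumours, SEC61B was higher (0.48 ± 0.10, adjusted p = 0.0076) and EIF2AK3 (-0.31), MTHFD2 (-0.28) and GARS1 (-0.21), the glycyl-tRNA synthetase, were lower (adjusted p = 0.0483, 0.0468 and 0.0484), with a background of 8.69%, 4.7% higher and 3.99% lower. The SEC61B call was kept under every alternative, and the other 3 in 6, 11 and 7 of 32 settings. With the offset for gene span these 3 were lost. This comparison turned on single tumours, with 11 members called without PTPRK.C1089S replicate 4, 7 without PTPRK replicate 5, 2 without PTPRK.RQ replicate 1, and 1 without any of 18 other tumours. For the members called in all 3 comparisons with PTPRK KO, the difference of PTPRK.RQ from PTPRK had 95% intervals of -0.23 to 0.18 for HSPA5, -0.33 to 0.04 for HSP90B1, -0.23 to 0.12 for PDIA4, -0.58 to 0.24 for ERN2, -0.35 to -0.01 for ATF6 and -0.07 to 0.33 for WFS1. In PTPRK.C1089S against PTPRK.RQ tumours edgeR called 0 members, against 5.16% of all genes (2.92% higher, 2.24% lower), with 4 members at an unadjusted p below 0.05 and 2 called by DESeq2.

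Against WT, PTPRK tumours had 9 members called higher and 4 lower (31.0%), with a background of 32.9% (16.1% higher, 16.8% lower). DNAJB9 (0.62), ATF6 (0.48), EDEM1 (0.44), SEL1L (0.44) and HSP90B1 (0.43) had the largest rises. SEC61B, CREB3L1 (-0.46), SDF2L1 (-0.35) and PCK2 (-0.31), the mitochondrial PEP carboxykinase, fell. PTPRK.RQ tumours had 3 higher (HSP90B1, ATF6 and WFS1) and 3 lower (ERN2, PCK2 and SEC61B), 14.3% against 28.3% of all genes (14.2% higher, 14.1% lower). PTPRK.C1089S tumours had 4 higher (PDIA4, EDEM1, ATF6 and WFS1) and 3 lower (CREB3L1, ERN2 and SHMT2), 16.7% against 14.9% (7.69% higher, 7.24% lower). Of the 13, 6 and 7 calls against WT, 9, 1 and 1 were kept under every alternative, with ATF6 the one kept in PTPRK.RQ and CREB3L1 in PTPRK.C1089S tumours. EDEM1 and SHMT2 in PTPRK.C1089S tumours were called in 8 and 10 of 32 settings. The PTPRK.RQ count was 3 without PTPRK.RQ replicate 3. The PTPRK.C1089S count was 2 without PTPRK.C1089S replicate 4 or WT replicate 2, 3 without PTPRK.C1089S replicate 3, and 4 without PTPRK.C1089S replicate 1 or WT replicate 3, 4 or 5. HSPA5 was not called against WT in any of the groups, with log2 fold changes of 0.21, 0.19 and 0.23 (adjusted p = 0.079, 0.15 and 0.17). The comparison with WT also carries the vector, the sort and the KO pool, which cannot be told apart from PTPRK.

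**Figure D3:**
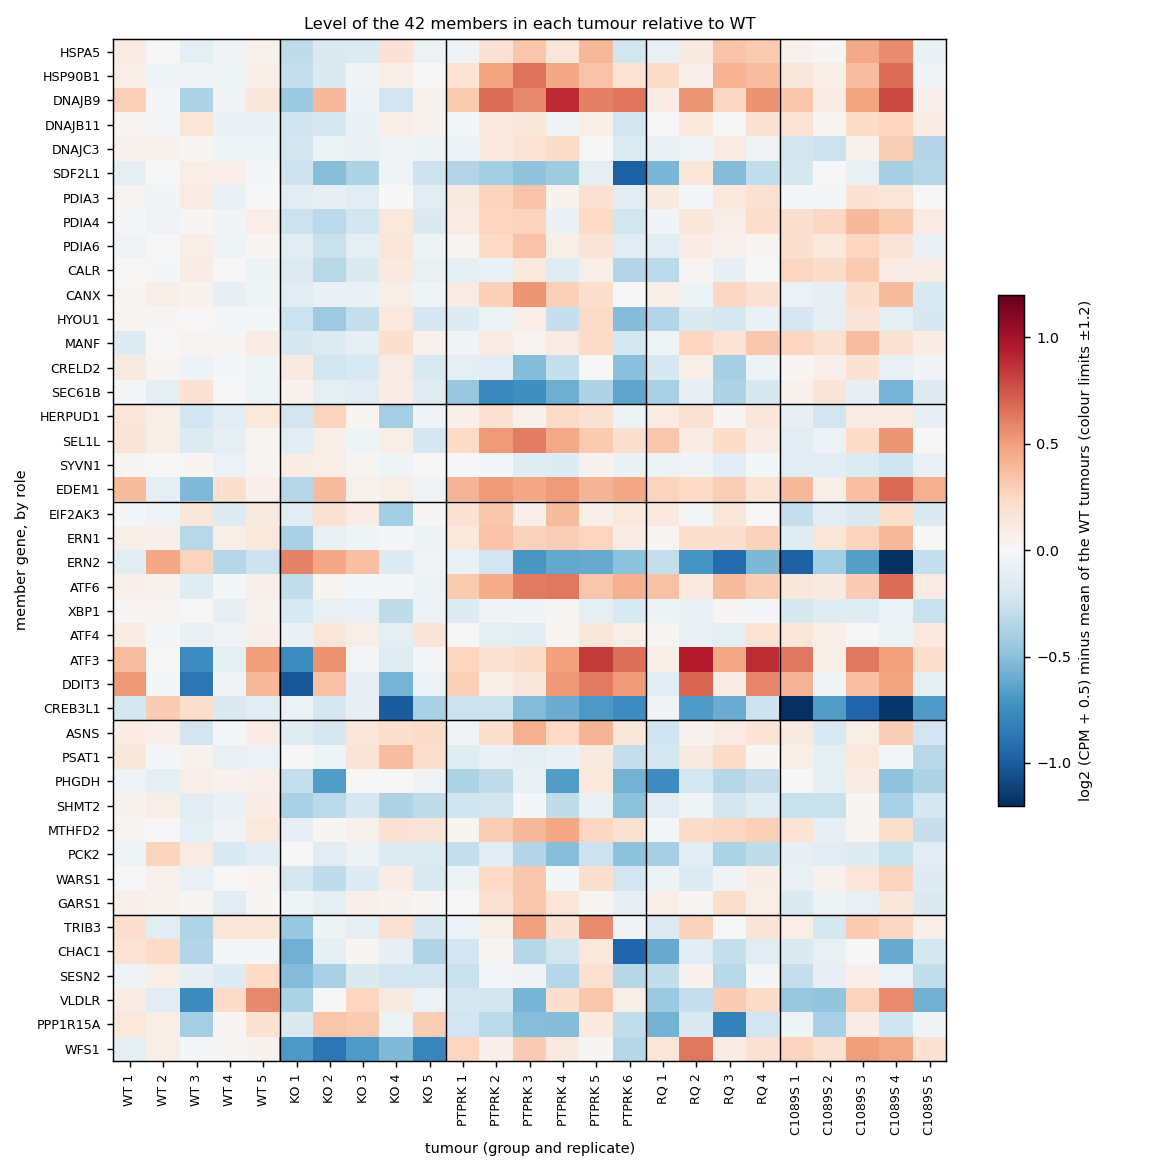
Level of the 42 members (rows, by role, with lines between roles) in the 25 tumours (columns, by group), as log2 of CPM + 0.5 minus the mean of the WT tumours, with red above and blue below WT. WFS1 is blue in all 5 PTPRK KO tumours, SEC61B is blue in the PTPRK tumours, and DDIT3 and ATF3 are blue in WT replicate 3 and PTPRK KO replicate 1.

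Other genes of the ER and of the ATF4 response were read from 6 lists, whose counts stand beside 27.8%, 21.8% and 16.6% of all genes called in PTPRK, PTPRK.RQ and PTPRK.C1089S against PTPRK KO. In PTPRK against PTPRK KO tumours, 10 of 24 genes of the translocon, signal peptidase and oligosaccharyltransferase were called higher and 1 lower, OST4 (-0.37). SSR1 (0.39), SPCS3 (0.34) and SSR3 (0.32) had the largest rises, where SEC61B had fallen. In PTPRK.RQ tumours 4 of these 24 rose, and in PTPRK.C1089S tumours 1 rose and 1 fell. The list's share called was 45.8% in PTPRK tumours, but below the background of both directions at 16.7% and 8.33% in the others. The rises in PTPRK.RQ tumours, 16.7% of the list, stand beside 10.7% of all genes called higher. Of 22 further genes of ER folding and oxidation, 7 rose and 3 fell in PTPRK tumours, among them ERO1A, the oxidase that recharges the disulphide isomerases (0.75), and FKBP2, a prolyl isomerase (-0.83). In PTPRK.RQ tumours 4 rose and 1 fell, with AGR3 (0.90) and AGR2 (0.47), isomerases of mucous cells, in front, and in PTPRK.C1089S tumours 1 rose, ERO1A (0.58). Of 16 further genes of ER-associated degradation, 6 rose and 2 fell in PTPRK tumours, 1 rose in PTPRK.RQ tumours and 3 in PTPRK.C1089S tumours. The shares called were 45.5%, 22.7% and 4.55% for folding and oxidation and 50%, 6.25% and 18.8% for degradation.

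Of 24 tested regulators, 6 rose and 4 fell in PTPRK tumours, 3 rose and 6 fell in PTPRK.RQ tumours, and 2 rose and 4 fell in PTPRK.C1089S tumours, which is 41.7%, 37.5% and 25%. CREB3L2, a relative of CREB3L1 that drives secretory pathway genes, rose in all 3 (0.91, 0.87 and 0.83). ATF5 (-0.66, -0.76 and -0.51), a factor translated like ATF4, and TNFRSF10B, the death receptor induced by CHOP (-0.38, -0.46 and -0.39), fell in all 3. In PTPRK KO tumours TNFRSF10B was above WT (0.31, adjusted p = 0.042). Of 15 tested genes of amino acid metabolism and transport, 2 rose and 2 fell in PTPRK tumours, 1 rose and 2 fell in PTPRK.RQ tumours, and 2 fell in PTPRK.C1089S tumours. The glutamine carrier SLC1A5 (-0.42, -0.47 and -0.31) and MTHFD1L (-0.36, -0.98 and -0.31) fell in each. Of 16 cytosolic tRNA synthetases, 3 rose and 1 fell in PTPRK tumours, and 3 fell in each of the other groups. Both lists were near the background, with 26.7%, 20% and 13.3% called for amino acid genes and 25%, 18.8% and 18.8% for the synthetases.

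Markers of tumour state also differed between tumours. The 10 hypoxia markers summed to 2289 to 5751 CPM in WT, 2652 to 4454 in PTPRK KO, 4317 to 5996 in PTPRK, 3266 to 4737 in PTPRK.RQ and 3867 to 6199 in PTPRK.C1089S tumours. Against PTPRK KO, 4, 1 and 2 of the 10 were called higher and none lower in the 3 groups (PDK1 by 0.91 in PTPRK tumours). These shares of 40%, 10% and 20% stand beside 27.8%, 21.8% and 16.6% of all genes called in either direction. Of all genes, 13.6%, 10.7% and 9.09% were called higher, so the share in PTPRK.RQ tumours was near that background. WT replicate 3 and PTPRK KO replicate 1 had the lowest sums, 2289 and 2652 CPM, and each had the lowest value of its group for 19 of the 42 members (45.2%, against 22.2% and 22.3% of all genes). Without both, 12 members were called higher and 3 lower in PTPRK against PTPRK KO, and 4 higher and 2 lower in both PTPRK.RQ and PTPRK.C1089S against PTPRK KO. Leaving out PTPRK KO replicate 1 alone gave 11 and 3, 3 and 2, and 4 and 2. In PTPRK.RQ, the tumour with the lowest hypoxia sum, replicate 1 (3266 CPM), was lowest for 22 members (52.4%, against 23.6% of all genes). In PTPRK.C1089S and PTPRK the lowest sums were in replicate 2 (3867 and 4317 CPM). These tumours were lowest for 7 and 3 members (16.7% and 7.14%, against 18.5% and 11.3%). There PTPRK.C1089S replicate 5 (4197 CPM) and PTPRK replicate 6 (4450 CPM) were lowest for 20 and 24.

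The 10 goblet and secretory markers summed to 1171 to 2251 CPM in WT, 412 to 1369 in PTPRK KO, 593 to 1328 in PTPRK, 1122 to 2703 in PTPRK.RQ and 662 to 920.0 in PTPRK.C1089S tumours. REG4 weighed heavily in these sums, with 931 of 1328 CPM in PTPRK replicate 1 and 1686 of 2703 CPM in PTPRK.RQ replicate 1. The median log2 fold change of the 10 markers against PTPRK KO was -0.623 in PTPRK, 0.543 in PTPRK.RQ and -0.623 in PTPRK.C1089S tumours. Against PTPRK KO, 2 of the 10 markers were called lower in PTPRK (ATOH1 and SPDEF) and 4 in PTPRK.C1089S tumours (ATOH1, SPDEF, MUC2 and BEST2). In PTPRK.RQ tumours 1 was called higher (ZG16). These shares of 20%, 40% and 10% stand beside 27.8%, 16.6% and 21.8% of all genes called in either direction. In the same direction, 14.2% and 7.53% of all genes were called lower and 10.7% higher. ERN2 was low both in PTPRK.C1089S tumours, where goblet markers were low, and in PTPRK.RQ tumours, where they were not. PTPRK KO replicate 4 had the lowest goblet sum, 412 CPM, and the lowest CREB3L1 and ERN2 of its group. Of the 10 proliferation markers, edgeR called 0 against PTPRK KO in any of the 3 groups, with 1, 0 and 0 at an unadjusted p below 0.05. DESeq2 was not read for these markers. Of the 14 markers of fibroblasts, vessels and leukocytes, 9 were tested. The shares called were 22.2%, 22.2% and 11.1%, beside 27.8%, 21.8% and 16.6% of all genes. PECAM1, a vessel marker, rose by 1.98, 2.02 and 1.43, with CPM of at most 6.51. The vessel markers VWF and CDH5 were at most 0.328 CPM. CD68 rose in PTPRK tumours (0.33) and LYZ fell in PTPRK.RQ tumours (-0.23). The part of hypoxia and goblet state in the members' changes was not tested.

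**Figure D4:**
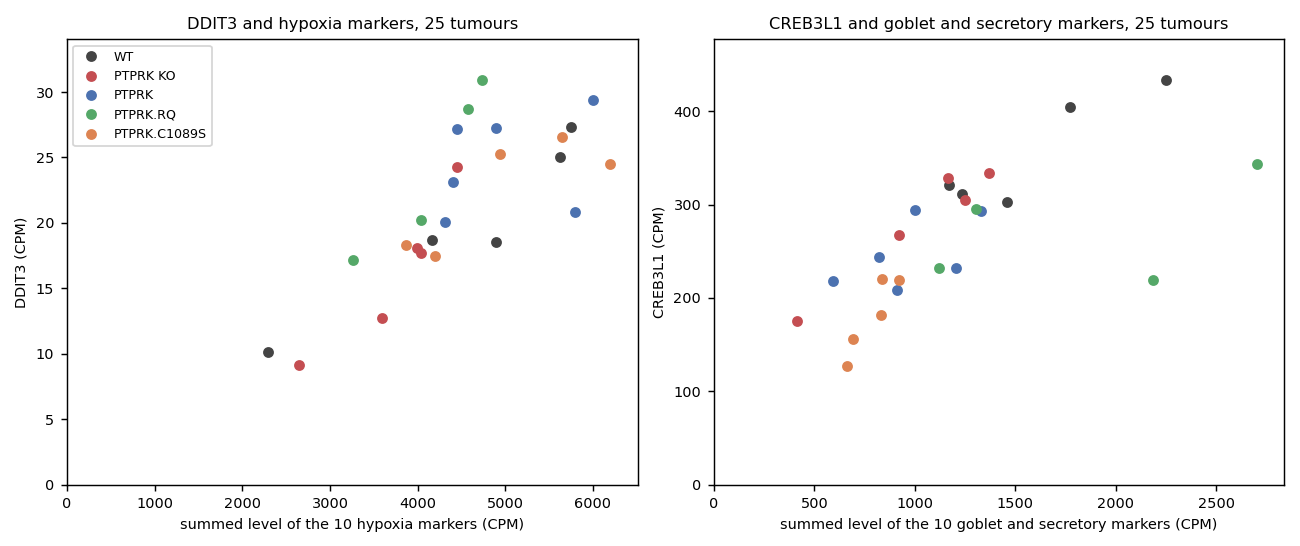
Level of DDIT3 against the summed hypoxia markers (left) and of CREB3L1 against the summed goblet and secretory markers (right), in CPM, for each of the 25 tumours, coloured by group. WT replicate 3 and PTPRK KO replicate 1 lie at the lower left with DDIT3 at 10.2 and 9.12 CPM, and the PTPRK.C1089S tumours lie at the lower left for CREB3L1.

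The change in PTPRK tumours also varied with gene length. Ranked by genomic span, the shortest of 5 equal bins of the expressed genes (mean log2 CPM above 3) had a median log2 fold change of -0.127 against PTPRK KO and the longest 0.117. These medians were -0.067 and 0.085 in PTPRK.RQ, and -0.018 and 0.002 in PTPRK.C1089S tumours. Against PTPRK tumours they were 0.048 and -0.042 in PTPRK.RQ, and 0.12 and -0.107 in PTPRK.C1089S tumours. The span is 6491 bases for HSPA5, 4984 for DNAJB9 and 197751 for ATF6. With an offset for span, 20 members were called higher and 2 lower in PTPRK against PTPRK KO, with SEC61B, at 8552 bases, still lower (-0.44, adjusted p = 0.00029). These were not all the same members as before. The calls of DNAJC3, EIF2AK3 and TRIB3 as higher and of PPP1R15A as lower were lost, and others were gained.

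**Figure D5:**
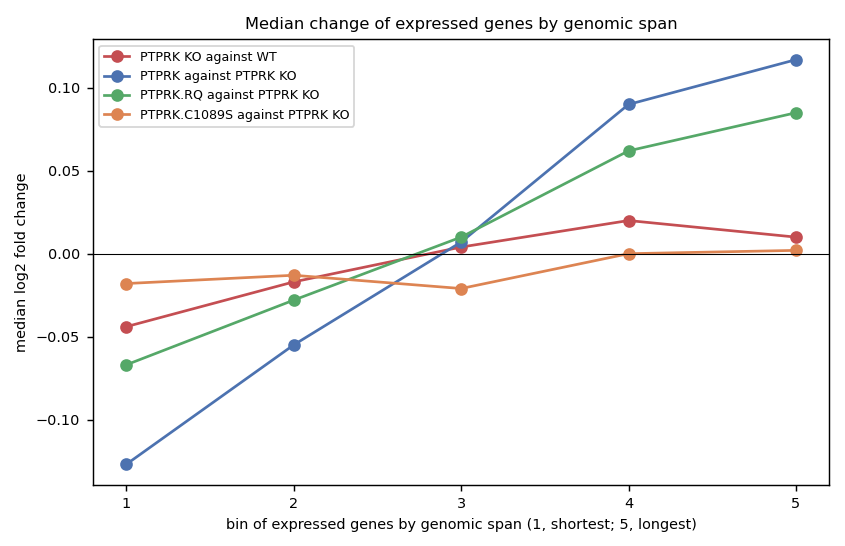
Median log2 fold change (y axis) of all expressed genes in 5 bins of genomic span (x axis, shortest to longest) for 4 comparisons. The line of PTPRK against PTPRK KO climbs from -0.127 to 0.117, and that of PTPRK.C1089S against PTPRK KO stays between -0.021 and 0.002.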

How the data were processed

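Poly(A) RNA of 25 xenograft tumours in 5 groups was sequenced in paired ends. The authors deposited 1 table of raw counts per gene, with positions on GRCh38. Reads were trimmed, mapped separately to the human and mouse genomes (HISAT2 2.1.0 per the labels, GRCh38), filtered on mapping quality and counted over exons in SeqMonk without strand. Reads of overlapping or antisense genes can therefore be shared, and 14 members have another gene of at least 10% of their counts at their locus. Mouse reads that also map to human sequence may be counted.

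Of 38179 entries, 51 with a repeated identifier were left out, which left 38128 genes, 9840 of them without a count. All 25 count columns were used and 0 were left aside. Depth was 43727372 to 59355464 counts per tumour. Replicates of a group differed beyond sampling noise in all 51 pairs. Per the study's methods each mouse was injected in 1 flank, so the tumours of 4 groups came from separate mice. The mice of PTPRK.C1089S are not described, and separate cell cultures are stated for no group, so p-values measure the spread between tumours.

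Counts were tested in edgeR 4.0.16 (R 4.3.3) by the quasi-likelihood test with TMM scaling, filterByExpr, group as the only term and Benjamini-Hochberg adjustment over all tested genes, at a threshold of 0.05. A first fit of 19 tumours (18550 genes) gave 6 comparisons. A second of 24, with PTPRK.C1089S, gave 4 (18758 genes). PTPRK replicate 6 entered only the alternative with all 25. CPM values used TMM-scaled library sizes of all 25 tumours. Alternatives were DESeq2 1.42.0, its size factors, no low-count filter, other sets of tumours, a replicate block and each tumour left out. An offset for gene span and the removal of the tumours with the lowest hypoxia markers were added after seeing the data. The test was checked on simulated counts.

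Members and lists were chosen with earlier results of these data known. The 20 members described one by one were 9 fixed by name and, per comparison, the 4 largest called changes with a mean log2 CPM above 0. WFS1 was among the 9 as a gene of the study's own table, the rest for their role. Other genes were named after their values were seen. The study housed its 4 genotypes together, but cages are not given per tumour, so a shared cage was not tested. Replicate numbers gave no clear sign of pairing between tumours. Pairs with the same number in different groups had a median correlation of 0.038 (-0.26 to 0.50, 46 pairs), against -0.025 in 184 other pairs. Promoter sequences were not analysed here.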

Additional observations from a re-analysis of the deposited data

Results flagged for a closer look

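Among the 20 members described one by one, 100 groups of 4 or 5 tumours were searched for a tumour far from the rest of its group, and 6 were found, where chance gives about 1 in 20. WFS1 was high in PTPRK.RQ replicate 2 (82.9 CPM). ERN1 was low in WT replicate 3 (27.3 CPM) and in PTPRK KO replicate 1 (26.3 CPM), the tumours with the lowest hypoxia markers. XBP1 (289 CPM) and GARS1 (151 CPM) stood apart in WT replicate 4. EIF2AK3 stood apart in PTPRK.C1089S replicate 4 (40.7 CPM).

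The change against PTPRK KO differed between forms of PTPRK for 4 members, in edgeR's quasi-likelihood test of the difference. SEC61B was higher in PTPRK.RQ than in PTPRK tumours by 0.33 on the log2 scale, and higher in PTPRK.C1089S than in PTPRK tumours by 0.48. In PTPRK.C1089S against PTPRK tumours, EIF2AK3 (-0.31), MTHFD2 (-0.28) and GARS1 (-0.21) were lower. The members called were 2.38% for PTPRK.RQ and 9.52% for PTPRK.C1089S, near the 3.74% and 8.69% of all genes. The SEC61B call held in 16 of 27 settings for PTPRK.RQ and in all 32 for PTPRK.C1089S. Those of EIF2AK3, MTHFD2 and GARS1 held in 6, 11 and 7 of 32, and each was lost with the offset for gene span.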

How the results depend on the processing

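The number of members called was within 1.5 times the reported one under most alternatives. Fitting only the 2 groups compared gave 6 members in PTPRK.RQ against PTPRK KO, 0 in PTPRK.RQ against PTPRK, 6 in PTPRK.C1089S against PTPRK KO, 2 in PTPRK.C1089S against PTPRK and 4 in PTPRK.C1089S against WT. Without both low-hypoxia tumours the counts were 6 in PTPRK.RQ and 6 in PTPRK.C1089S against PTPRK KO, 2 in PTPRK.C1089S against PTPRK and 3 in PTPRK.C1089S against WT. Without the filter they were 0 in PTPRK.RQ against PTPRK, 1 in PTPRK.C1089S against PTPRK and 1 in PTPRK.C1089S against PTPRK.RQ. DESeq2's size factors gave 2 and 1 in the last 2 comparisons, and its Wald test gave 2 in PTPRK.C1089S against PTPRK.RQ. The span offset gave 2 in PTPRK.C1089S against PTPRK. All 25 tumours in 1 fit gave 0 in PTPRK.RQ against PTPRK. The cause was not tested.

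With each tumour left out, the counts were 2 to 2 in PTPRK KO against WT, 14 to 21 in PTPRK, 5 to 13 in PTPRK.RQ and 6 to 15 in PTPRK.C1089S against PTPRK KO, 0 to 1 in PTPRK.RQ against PTPRK, 1 to 11 in PTPRK.C1089S against PTPRK, 0 to 2 in PTPRK.C1089S against PTPRK.RQ, and 11 to 17, 3 to 8 and 2 to 8 in PTPRK, PTPRK.RQ and PTPRK.C1089S against WT.

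With the replicate number as a block, 2 members were called between PTPRK KO and WT. The counts against PTPRK KO were 20 for PTPRK, 13 for PTPRK.RQ and 13 for PTPRK.C1089S, and those against WT were 15, 7 and 7. Against PTPRK they were 0 for PTPRK.RQ and 3 for PTPRK.C1089S, and 0 for PTPRK.C1089S against PTPRK.RQ. No pairing beyond this number is described for the tumours. Of the values of the described members over all alternatives, 5434 kept direction and side of the threshold, 275 lost and 91 gained a call, and 0 changed direction in a called value. CHAC1 and VLDLR, at under 10 CPM, limit what can be read from them.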
